A study of Mus musculus with 6 samples.

Results

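Chromatin accessibility was described in wild-type E14TG2a cells, a male line of mouse embryonic stem cells, from 2 libraries of genotype WT. The series holds 6 libraries in all, and the other 4 come from cells with an Alkbh5 KO or an Alkbh5 del-cIDR allele and are not compared here. Per the labels, all groups grew in 15% serum with LIF at 1000 U/ml, the MEK inhibitor PD0325901 at 1 µM and the GSK3 inhibitor CHIR99021 at 3 µM, and 10 µl of spike-in nuclei went into each reaction. The regions described are those on chromosomes 1 to 19 where the peak lists of both WT libraries had a peak. Peaks of the 2 lists were merged where they overlapped by at least 1 bp, which gave 216922 regions, and 148909 of them (68.6%) were called in both. The 6 libraries of the series merge into 259376 mouse regions, a count that also includes X, Y, MT and unplaced sequences. Chromosome positions are in GRCm39.

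In ATAC-seq a transposase cuts DNA that is not wrapped in nucleosomes and leaves sequencing adapters there, so a peak marks a stretch of open chromatin. Open regions in stem cells include promoters, which tend to stay open in many cell types, and enhancers and insulators, which hold transcription factors or CTCF. LIF together with inhibitors of MEK and GSK3 keeps mouse stem cells in the naive state of pluripotency, in which OCT4, SOX2 and NANOG act with factors such as KLF4 and ESRRB. Regions are named by position only, because gene positions of the same genome build were not used here. Peaks at Pou5f1, Sox2, Nanog or other stem cell genes are therefore not reported, and the labelled cell type was not checked against its marker loci.

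The lists held 189594 peaks in WT replicate 1 and 180903 in WT replicate 2 on chromosomes 1 to 19, covering 65.4 and 62.6 Mb. The height of a peak is the number of tags piled up at its summit, solved from the deposited fold and −log10 p, and background is the local level in tags that the peak caller set against it. The lowest background of a library, which follows its depth, was 1.09 tags in replicate 1 and 1.18 tags in replicate 2. Total reads are not analysed here, and a region without a call is not shown to be closed.

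Most of the stronger peaks were found in both libraries, and the weakest were not. In replicate 1, 79.8% of peaks overlapped a peak of replicate 2, and in replicate 2, 83.6% overlapped a peak of replicate 1. In the lowest decile of fold, the ratio of summit to background within a list, 39.3% of the peaks of replicate 1 and 46.0% of those of replicate 2 were shared. From the eighth decile upward at least 99.2% were shared in either list. Peaks that were not shared were narrow and low, with a median width of 163 and 157 bp and a median height of 9 and 11 tags, against 321 and 309 bp and 22 and 25 tags for shared peaks. Of the regions called in 1 library only, 38390 came from replicate 1 and 29623 from replicate 2, and none reached 1 kb in width. Of these, 95.9% in replicate 1 and 90.3% in replicate 2 were under 20 tags high. The exceptions included a 166 bp region on chromosome 13 from 90955740 to 90955905, with 282 tags in replicate 1, and a 266 bp region on chromosome 4 from 55278927 to 55279192, with 481 tags in replicate 2. These 2 positions were chosen after their values were seen.

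**Figure D1:**
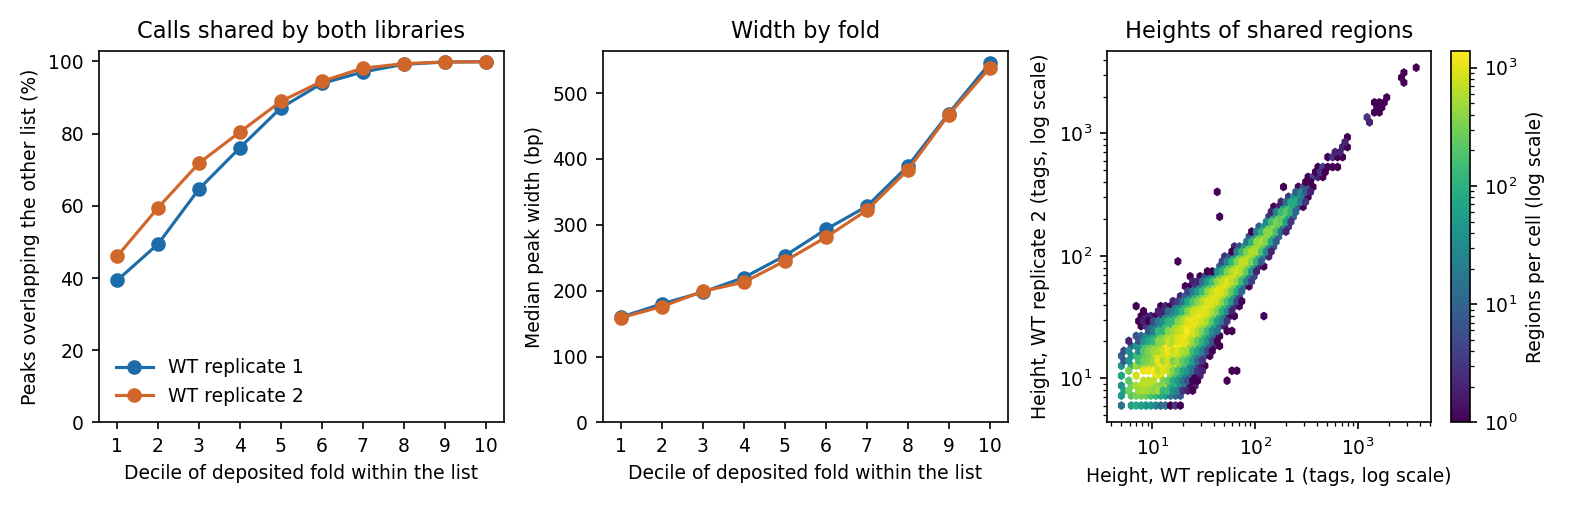
Left and middle, the share of peaks that overlap the other list (%) and the median peak width (bp) for each decile of the deposited fold, 1 line per WT library; right, the height (tags, log axes) of each region called in both libraries, with the number of regions per cell in colour. Sharing rose from 39.3% and 46.0% in the lowest decile to 99.9% in the highest, and the heights of most regions lay along 1 line.

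Heights of the regions called in both libraries followed each other closely. The median height was 23 tags in replicate 1 and 25 in replicate 2, 10% of regions had at most 10 and 11 tags, and the tallest 1% began at 185 and 210 tags. Across the 148909 regions, which share the genome and the calling rule, Pearson's r of log2 height was 0.95 and Spearman's rank correlation of fold was 0.90. The top 10% by height held 14933 regions in replicate 1 and 14871 in replicate 2, and 13470 were in both, which is 90.2% of the first set and 90.6% of the second. Regions were higher in replicate 2 by a median of 0.16 on the log2 scale, near the 0.12 log2 by which its lowest background was higher.

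In regions called in both libraries, the spread between them was below what counting tags alone gives, except in the tallest. For regions of 5 to 10 tags the SD of the log2 ratio was 0.41, against 0.71 from counting error. At 10 to 20 tags it was 0.44 against 0.56, and at 20 to 40 tags 0.35 against 0.40. For regions of 80 to 160 tags it was 0.18 against 0.20. The observed spread was below the counting error in 6 of 7 height classes. Only the 75 regions of at least 320 tags spread more, with an SD of 0.13 against 0.09. Tags at a summit are not fully independent draws, and regions had to pass the calling limit in both lists, so the counting error is a guide. The labels do not state whether the libraries came from separate cultures. The spread of shared regions did not exceed counting error over most of the range. It cannot show whether the cultures were separate, because regions had to be called in both lists. The libraries are treated as 1 sample. Both values are given, with no mean ± SD. Regions called in 1 library only are outside this comparison. Of those, 26 in replicate 1 and 62 in replicate 2 had at least 50 tags.

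Summits of the libraries mostly lay close together, and closest in tall regions. Among the 144454 regions with 1 peak in each list (97.0%), the summits of the 2 libraries lay a median of 24 bp apart, 71.4% lay within 50 bp and 12358 fell on the same base. Over all 148909 regions the distance fell with height, from a median of 52 bp for regions of 5 to 10 tags to 7 bp for regions of 80 to 160 tags and 2 bp for those of at least 320 tags. The other 4455 regions joined several peaks of a list, at most 4.

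Open regions were short. Widths ranged from 114 to 4300 bp with a median of 372 bp, the quartiles were 256 and 552 bp, and 10% were at least 790 bp wide. Together the regions covered 65.8 Mb, or 2.74% of the span from the first to the last region of each chromosome. The merged region is wider than its peaks, whose median was 274 and 270 bp over the whole lists. Regions of at least 1 kb numbered 6483 (4.35%) and held 12.1% of the covered length, 777 reached 1.5 kb and 52 reached 2 kb. This share depends on the merging, since 2.35% of the peaks of replicate 1 and 2.61% of those of replicate 2 reached 1 kb, and on height, since it was 7.12% among regions averaging 20 tags or more.

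Wider regions were taller up to about 1 kb. Median height was 15 and 17 tags for regions of 200 to 300 bp, 28 and 32 tags at 400 to 600 bp, 59 and 67 tags at 800 to 1000 bp, and 72 and 82 tags at 1000 to 1500 bp. From there it did not rise further, with 71 and 82 tags for regions of at least 1.5 kb and 58.5 and 74 tags for those of at least 2 kb. Median fold was 13.2 and 13.7 at 1000 to 1500 bp and 11.2 and 11.6 at 1.5 kb or more. The local background went from 4.46 and 4.99 tags to 5.44 and 6.09 tags between these classes, so the fold of the broadest regions was lower at a like height. Spearman's rank correlation of width with mean height was 0.53 over all regions, as a description.

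Tall regions were wider than most regions, the very tallest less so. Of 1385 regions averaging 200 tags or more, the median width was 840 bp, 403 (29.1%) were at least 1 kb wide, against 4.35% of all regions, and 22 were under 250 bp. Above 1000 tags stood 17 regions on 11 chromosomes, at 1224.5 tags or more, while the next region below had 853. The 17 ranged from 115 to 4300 bp in width with a median of 466 bp, so most were narrower than the 840 bp typical of regions over 200 tags.

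**Figure D2:**
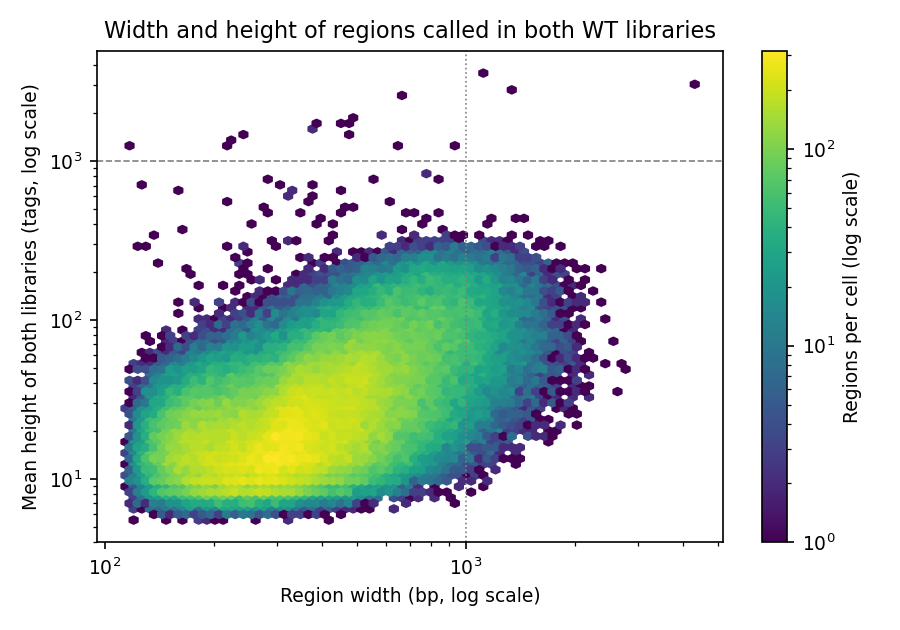
Each region called in both WT libraries by width (bp, log axis) and mean height of both libraries (tags, log axis), with the number of regions per cell in colour; the dashed line marks 1000 tags and the dotted line 1000 bp. The main cloud rises with width, and 17 regions of 115 to 4300 bp stand above the dashed line, apart from it.

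The tallest region by tags lay on chromosome 2 from 98496583 to 98497677, with 3698 tags in replicate 1 and 3441 in replicate 2. A pair of further regions above 1000 tags lay within 5 kb of it, from 98492580 to 98493213 with 1334 and 1208 tags and from 98495348 to 98495567 with 1255 and 1194 tags. Chromosome 17 held the widest region of all, from 40153888 to 40158187, with 2885 and 3104 tags, and beside it, 171 bp away, a region from 40158359 to 40159720 with 2620 and 2816 tags. These chromosome 17 regions followed it in height but had folds of only 3.73 and 3.62, and 3.09 and 3.07, which put them at the 10.2 and 5.92 and at the 2.84 and 1.78 percentile of their lists. Their local backgrounds were 773 and 856 tags, and 847 and 917 tags, against medians of 1.46 and 1.73 over the lists. Height and fold thus ranked the same chromosome 17 regions at opposite ends. The tallest region, on chromosome 2, also had high backgrounds, 158 and 144 tags. Whether these positions hold repeated sequence, or sequence with more copies than the genome build shows, was not tested. Their heights are therefore not shown to measure open chromatin.

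Replicate 1 was the higher of the libraries in 6 of the 17 regions above 1000 tags, although the median region was higher in replicate 2. They included the 3 on chromosome 2. A region of chromosome 1, from 24651691 to 24652340, had 2786 tags in replicate 1 and 2502 in replicate 2. On chromosome 6, the region from 103626009 to 103626253 reached 1565 and 1468 tags. The last of the 6 spanned 9061739 to 9062204 of chromosome 13 and reached 1489 and 1457 tags.

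Ranked by fold, the leading regions were narrow. The first was 115 bp wide, on chromosome 16 from 91331471 to 91331585, close to the narrowest width in either list (114 and 113 bp). It had 1175 and 1363 tags over backgrounds of 14.3 and 16.3 tags, a fold of 77.0 and 79.1. Next came a region of chromosome 12, from 78397643 to 78397947, where 636 and 719 tags gave folds of 74.0 and 76.5. The region after it spanned 123290863 to 123291247 of chromosome 9 and had 1646 and 1686 tags, more than double the height at nearly the same fold, 75.7 and 76.2. The 20 regions of highest fold were 115 to 650 bp wide with a median of 292.5 bp, none reached 1 kb and 8 were under 250 bp. Their folds were at least 61.5 and 60.8, while the top 1% of each list began at 24.8 and 26.2. They lay on 11 chromosomes, with 4 each on chromosomes 8 and 9, and 16 of the 20 had more tags in replicate 2. Of the 20, 5 were also among the 20 tallest regions by tags and 14 among the 30 tallest. All had at least 278 tags in replicate 1 and 279 in replicate 2. The tallest 1% of regions called in both libraries began at 185 and 210 tags. Heights of the 20 in replicate 1 ran from 278 to 2786 tags, over backgrounds of 3.45 to 37.0 tags. The median background of that list was 1.46 tags. Whether these 20 regions, or the others above 1000 tags, hold repeated sequence or sequence with more copies than the build shows was not tested. Their heights and folds are therefore not shown to measure open chromatin.

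The widest regions ranged from low to tall. After the chromosome 17 region, the widest lay on chromosome 15 from 39060134 to 39062845, 2712 bp long and 49 tags high in each library. A region of 2647 bp on chromosome 9, from 98836781 to 98839427, was only 36 and 35 tags high. A region of 2644 bp on chromosome 11, from 70544273 to 70546916, was 51 and 56 tags high. The tallest of the others, on chromosome 11 from 23045095 to 23047490, was 2396 bp wide and had 205 and 221 tags. On chromosome 19 the region from 32733180 to 32735555 had 109 and 139 tags. On chromosome 3, a merged region of 2458 bp from 34702960 to 34705417 had 89 and 110 tags, from 1 peak in replicate 1 and 3 in replicate 2. Another on chromosome 3, of 2287 bp from 58912478 to 58914764, had 43 and 73 tags. All 10 widest regions spanned at least 2287 bp, and 8 of them joined 2 or more peaks of at least 1 list. In that chromosome 15 region replicate 1 had 4 separate peaks where replicate 2 had 1.

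Regions were unevenly spaced. The median gap from one region to the next was 7133 bp and the mean 15689 bp, 61.9% of the 148890 gaps were under 10 kb and 10.1% (15074) under 1 kb. Gaps of at least 100 kb made up 2.07% of the gaps (3083) but 23.3% of the span, 559 Mb in all. How well reads map within gaps was not checked, so a gap is not shown to lack open chromatin. Gaps under 200 bp numbered 2332, and 244 of them were under 100 bp. The distance at which the peak caller joins stretches was not given, and its part in the shortest gaps was not tested. The 3 widest gaps were on chromosome 7 from 20593651 to 22470764 (1.88 Mb), on chromosome 7 from 8361234 to 10059291 (1.70 Mb) and on chromosome 5 from 94155554 to 95820706 (1.67 Mb). The chromosome 5 gap held no peak of either list, and neither did a gap of 1.38 Mb on chromosome 2 from 175018014 to 176399785. A gap of 1.19 Mb on chromosome 3 from 41757245 to 42949561 held 11 peaks of replicate 1 and 8 of replicate 2. By the definition of a gap these cannot be shared.

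Neighbouring regions resembled each other in height only when they were close. For gaps of 1 to 4 kb, Spearman's rank correlation of the heights of the 30013 neighbouring pairs was 0.47 (0.45 in each library alone), and for the 25403 pairs 5 to 8 kb apart it was 0.06 (0.06 and 0.05). The change was a step. The rank correlation was 0.41 at gaps of 4 to 4.5 kb, 0.13 at 4.5 to 5 kb and 0.05 at 5 to 5.5 kb. The number of pairs fell from 7969 in the first 0.5 kb to 4488 at 3.5 to 4 kb, was 4504 at 4 to 4.5 kb, rose to 5615 at 4.5 to 5 kb and then fell again. The background used in calling stepped at the same distance. The lower region of a pair was at the lowest background of its library in 10.2% and 10.1% of pairs at 4 to 4.5 kb, and in 35.7% and 35.5% at 5 to 5.5 kb. Its median height was 20 tags at 1 to 4 kb and 16 tags at 5 to 8 kb. With regions of at least 20 tags only, a setting chosen after seeing the data, the rank correlation was 0.18 at 1 to 4 kb and 0.01 at 5 to 8 kb. The part of the background in this step was not tested. The rank correlation is given as a description, as neighbours share libraries and sequence context.

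**Figure D3:**
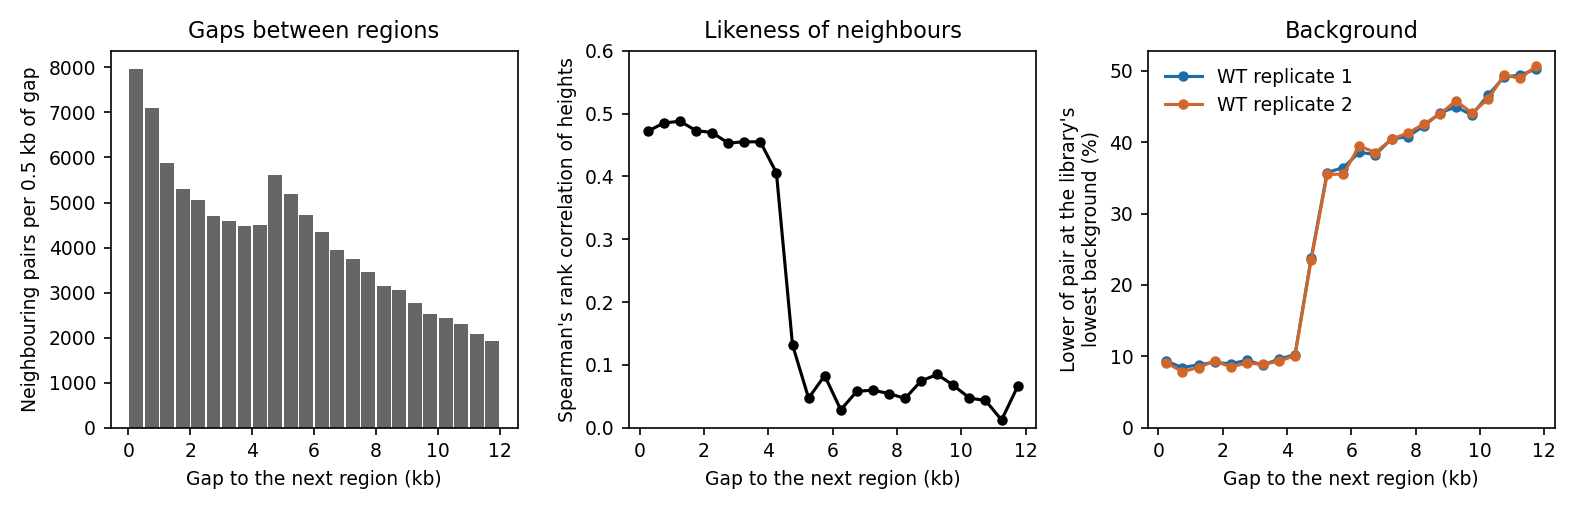
By gap to the next region (kb, steps of 0.5 kb), left, the number of neighbouring pairs; middle, Spearman's rank correlation of the mean heights of the pair; right, the share of pairs (%) whose lower region was called at the lowest background of its library, 1 line per WT library. All 3 change abruptly between 4.5 and 5 kb, where the rank correlation falls to 0.13 from 0.41 and the pairs rise to 5615 from 4504.

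Density varied strongly along the chromosomes. Over 2374 full windows of 1 Mb the median was 55 regions, 10% of windows held at most 14 and 10% at least 119. The 582 windows with at least 95 regions held 47.4% of the regions in these windows, and the 613 windows with at most 26 held 6.43%. The 2 lists placed their peaks in the same windows, with Pearson's r of 0.99 between their counts. Windows resembled their neighbours, with r of 0.62 at 1 Mb, 0.41 at 2 Mb, 0.16 at 5 Mb and 0.10 at 20 Mb.

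The densest window was chromosome 11 from 97 to 98 Mb with 192 regions. It was followed by chromosome 7 from 28 to 29 Mb with 188, chromosome 7 from 44 to 45 Mb and chromosome 17 from 29 to 30 Mb with 181 each, and chromosome 10 from 80 to 81 Mb with 179. Their regions were also taller than most, with window medians of 32 to 43 tags in replicate 1 and 36 to 49 in replicate 2, against 23 and 25 over all regions. Only 2 windows had no region, both on chromosome 7, from 9 to 10 Mb and from 21 to 22 Mb. A single region was found in 3 windows, on chromosome 5 from 94 to 95 Mb and on chromosome 7 from 20 to 21 and from 32 to 33 Mb.

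Regions in crowded windows were taller and slightly wider. Median height was 16 and 18 tags in the windows with at most 26 regions and 26 and 29 tags in those with at least 95, and median width was 341 against 382 bp. Regions of at least 1 kb were 3.04% of the first group and 4.69% of the second. Median fold hardly differed, at 7.67 and 8.26 against 7.91 and 8.26, and the median background was 1.09 and 1.18 tags in the sparse and 2.25 and 2.46 tags in the crowded windows.

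**Figure D4:**
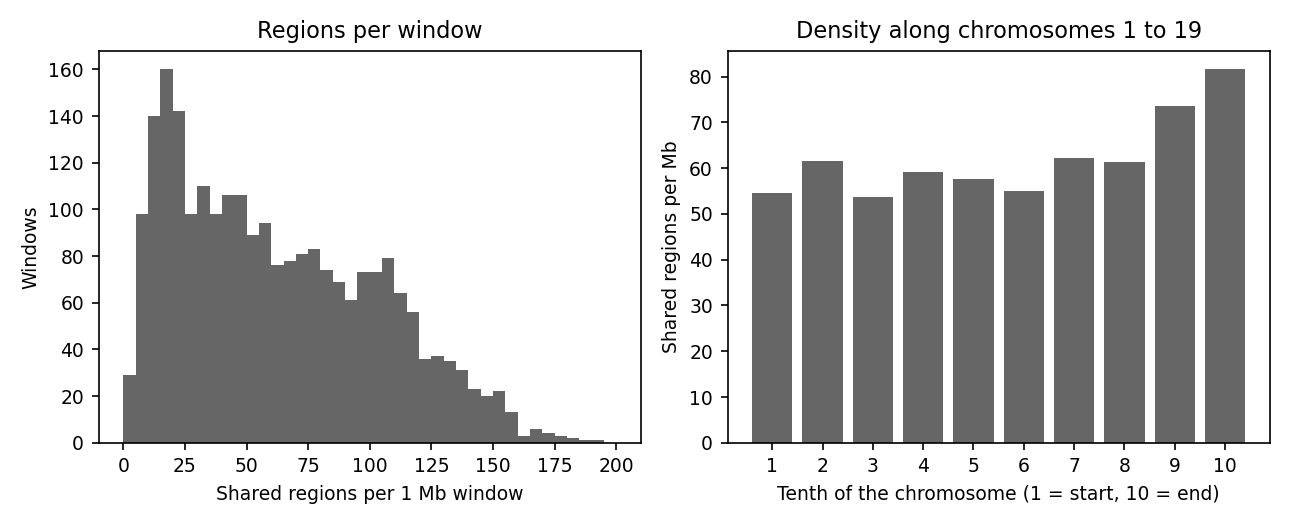
Left, the number of 1 Mb windows by the number of regions called in both WT libraries that they hold; right, regions per Mb in each of 10 equal segments of a chromosome, from its first to its last region, summed over chromosomes 1 to 19. Windows range from 0 to 192 regions with a median of 55, and the last segment, at 81.6 regions per Mb, is the densest.

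Density rose towards the distal end of the chromosomes. In mouse the centromere lies at the start of the numbered sequence. With each chromosome divided into 10 equal segments, the first 8 held 53.6 to 62.1 regions per Mb, the ninth 73.5 and the last 81.6. In 14 of 19 chromosomes the last segment was denser than the chromosome as a whole. Median width stayed between 367 and 379 bp along the chromosomes and median height between 21 and 23 tags in replicate 1.

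Between chromosomes density ranged 1.75-fold around 62.0 regions per Mb. Chromosome 11 was the densest with 85.8 regions per Mb, followed by chromosome 19 with 76.5 and chromosome 17 with 70.5, and chromosomes 3, 14 and 1 were the sparsest with 49.1, 50.5 and 52.8. The order of chromosomes 11, 19 and 17 was the same in each list, at 106, 96.2 and 89.2 peaks per Mb in replicate 1 and 103, 92.7 and 85.6 in replicate 2. Denser chromosomes tended to have taller regions, with exceptions. Mean log2 height relative to all regions was 0.14 on chromosome 11 in both libraries, and -0.10 and -0.09 on the sparse chromosome 1. Chromosome 7, near the average in density, reached 0.13 in both libraries, while the dense chromosomes 9 and 5 were at 0.01 and -0.01 in both. Across the 19 chromosomes Spearman's rank correlation between density and median height was 0.85 in each library. Fold and background were not compared between chromosomes, so taller regions here are not shown to be more open.

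Chromosomes rich in genes held more regions. The RefSeq table of GRCm38.p6 places 20661 protein-coding genes on chromosomes 1 to 19, and only the chromosome of each gene was used. Regions per Mb and genes per Mb had a Pearson's r of 0.77 and a Spearman's rank correlation of 0.88 over the 19 chromosomes, as a description. Chromosome 7 was the exception at the gene-rich end. It had the most genes per Mb (14.3) but 63.1 regions per Mb, which is 4.41 regions per gene against 7.21 over all. It also carried 417 of the 1458 genes with Olfr or Vmn symbols, the olfactory and vomeronasal receptor families that serve smell and pheromone sensing in sensory neurons. Without these genes Pearson's r was 0.86 and Spearman's rank correlation 0.89, so the latter hardly moved, and chromosome 7 still had the fewest regions per gene, 5.55 against 7.75 over all. Chromosome 18 had the most, 9.98 per gene, and chromosome 12 had 9.71. Whether the receptor gene clusters themselves lack open regions was not tested.

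**Figure D5:**
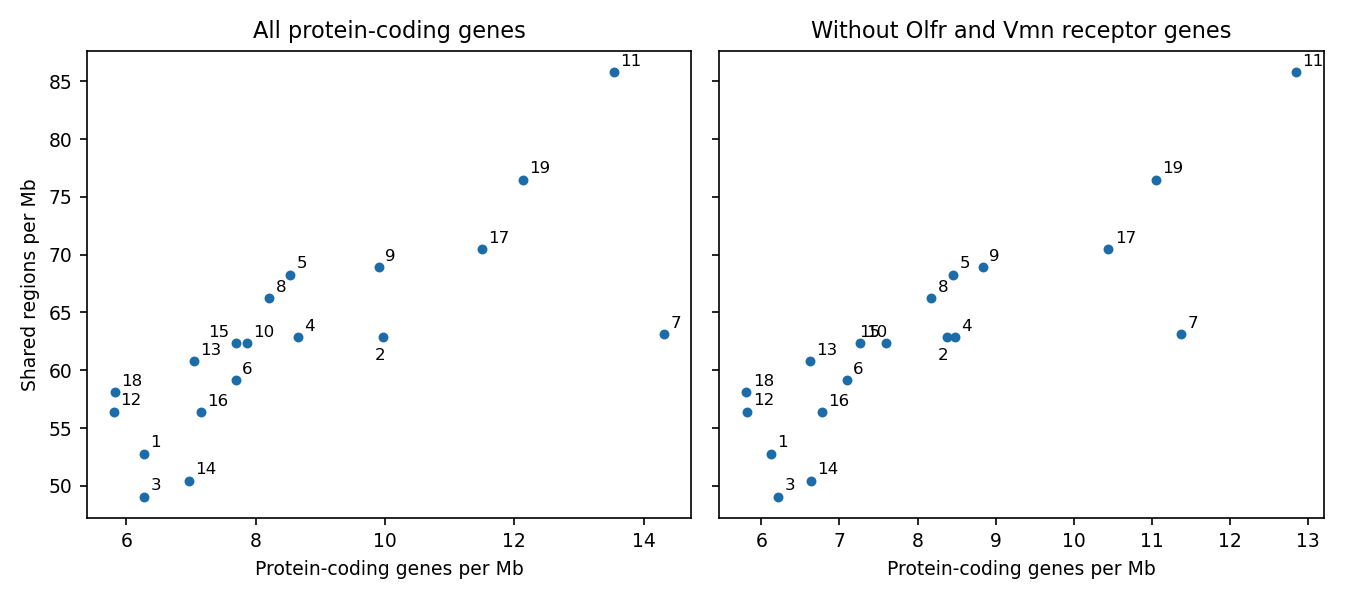
Regions called in both WT libraries per Mb against protein-coding genes per Mb (RefSeq counts), 1 point per chromosome with its number; left with all genes, right without genes with Olfr or Vmn symbols. Chromosome 11 is highest in both panels, and chromosome 7, at 63.1 regions per Mb, lies farthest right in the left panel.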

How the data were processed

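The authors deposited one peak list for each library. The tools named, per the submitters' processing notes, include MACS2 for peaks, BWA, fastp, Picard, SAMtools and featureCounts, with build GRCm39. Their versions and settings, and any shift of reads to the cut site, were not given in the sources used here. The deposited fold is a ratio of summit pileup to local background within its own list, and was ranked only there. The deposited −log10 p and −log10 q belong to each summit, and no peak has a q above 0.05. The score deposited by the authors is 10 times the −log10 q without its decimals in 99.9% of peaks or more. Heights were solved from fold and −log10 p in the form that MACS2 uses, with 1 added to pileup and background, and were whole within 0.1 tags in 100% of peaks. Where a region held several peaks of a list, the tallest was used. The scripts were tested on simulated data.

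Gaps are the bases between merged regions. Windows of 1 Mb count region midpoints and leave out the partial first and last window. Peaks on X, Y, MT, unplaced sequences and the spike-in were left out. Named by rule were the 20 regions of highest mean fold percentile, the 10 widest, the 5 densest and 5 sparsest windows and the widest gaps; the tallest by tags and the neighbour classes were chosen after seeing the data. The members and lists were chosen with earlier results of these data known. The planned counts at gene starts and of motifs were not run, because the reference tables are of GRCm38.p6 and coordinates were not converted; those tables served only for genes per chromosome, set against spans in GRCm39. With 1 group there is no test. Python 3.11.15, numpy 2.4.6, pandas 2.3.3 and scipy 1.17.1 were used.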

Additional observations from a re-analysis of the deposited data

Results flagged for a closer look

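Peaks also lay outside chromosomes 1 to 19, in data that the regions above do not use. Chromosome X had 4102 peaks in replicate 1 and 3805 in replicate 2, with a median height of 15 and 18 tags against 18 and 21 on chromosomes 1 to 19. Chromosome Y had 73 and 61 peaks, up to 553 and 554 tags high. The mitochondrial sequence had 2 peaks in each library, with folds of at most 3.10 and 3.31. Unplaced sequences had 134 and 113 peaks, up to 3295 and 3504 tags high. The sequence named dm, taken as the spike-in, had 1679 and 1568 peaks.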

How the results depend on the processing

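The count of regions called in both libraries stayed within 1.5 times of 148909 at a stricter q, with lists of equal length, with a reciprocal overlap and without narrow regions, and with 1 library left out only that list remains, with 180903 to 189594 peaks, which says nothing about this count. It was 87783 for regions averaging 20 tags or more, a setting chosen after seeing the data. The mean share of peaks in common, 81.7%, was 85.6% at −log10 q of at least 5 and 71.9% with a reciprocal overlap of 50%. It was 62.6% with regions under 250 bp left out of the shared peaks but not of the total, which lowers it by construction, and 95.0% among peaks of at least 250 bp, a setting added after seeing the data. The median width of 372 bp was 408 bp at the stricter q, 446 bp without regions under 250 bp, 463 bp from 20 tags and 270 to 274 bp with 1 library left out, where no merging takes place. The median gap of 7133 bp was 8336 bp at the stricter q, 7181 bp with lists of equal length, 7937 bp with the reciprocal overlap, 9239 bp without regions under 250 bp, 9472.5 bp from 20 tags and 5922 to 6046 bp with 1 library left out. The 1.75-fold range of chromosome density was 1.78, 1.76, 1.74 and 1.79 under the first 4 of these settings in that order, 1.73 over windows that hold a peak, 2.03 from 20 tags and 1.68 to 1.75 with 1 library left out. The share of regions of at least 1 kb was 2.35% and 2.61% in single lists and 7.12% from 20 tags. Counts at gene starts, in gene lists and of motifs were not run, since a GRCm39 annotation was not used here. No paired analysis was possible because only 1 group is described. The part of depth in the low share of weak peaks in common was not tested.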

Other observations

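A few regions differed between the libraries well beyond counting error. Among regions averaging 100 tags or more, chromosome 1 from 140479398 to 140479911 had 41 tags in replicate 1 and 341 in replicate 2, with folds of 7.02 and 56.1. Chromosome 5 from 122168622 to 122168975 had 47 and 207 tags. The next was chromosome 9 from 4259946 to 4260954, with 191 and 363 tags. Their log2 ratios lay 2.89, 1.98 and 0.76 above the median ratio, and that of the next region lay 0.63 above it. These positions were chosen after their values were seen.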
